A study of Mus musculus with 36 samples.

Results

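The 9 genes described here code for the plasminogen activators urokinase (Plau) and tissue plasminogen activator (Plat), the urokinase receptor (Plaur), the serpin inhibitors Serpine2 and Serpinb2, and the tissue inhibitors of metalloproteinases Timp1, Timp2, Timp3 and Timp4. They were taken by symbol from 55414 genes in each deposited count table, and all 9 were among the 20657 genes that passed a filter on low counts. The study measured RNA in mouse skin, in wounds of 2 arms labelled P and PD, on days 2, 4 and 12 after injury, and in unwounded skin. Its title concerns the removal of cells with high p21, a cell cycle inhibitor, during wound repair. There were 5 P and 5 PD libraries at day 2, 5 P and 6 PD at day 4, 6 P and 6 PD at day 12, and 3 of unwounded skin (day 0). The labels give neither the meaning of P and PD nor an arm for the unwounded skin, and they state no strain, age, allele or drug. They also do not say whether each library came from a separate mouse, so p-values measure the spread between these samples, which may be partly technical.

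Plasminogen activators turn plasminogen into plasmin, a protease that dissolves fibrin and can activate metalloproteinases. Plaur holds urokinase at the cell surface, and keratinocytes and leukocytes are known to use this system as they move through the clot. Serpins trap their target protease in a covalent complex: Serpine2 (protease nexin-1) acts on thrombin and the plasminogen activators, and Serpinb2 (plasminogen activator inhibitor type 2) acts on urokinase and is largely kept inside cells. Timps block the active site of metalloproteinases, and Timp3 differs from its relatives in binding tightly to the extracellular matrix.

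In GRCm39, the genome build of the counts, the genes were located with a GENCODE annotation of that build. Plau lies at chr14:20886722-20893453, Plaur at chr7:24161875-24175394 and Plat at chr8:23247709-23272871, all on the plus strand. Serpine2 (chr1:79763323-79839144, minus strand) and Serpinb2 (chr1:107428593-107463208, plus strand) share a chromosome. Timp1 (chrX:20736316-20740976, plus strand) lies inside the synapsin gene Syn1, Timp3 (chr10:86136236-86185371, plus strand) inside Syn3 and Timp4 (chr6:115187773-115229336, minus strand) inside Syn2, each on the strand opposite to its host. Timp2 (chr11:118191887-118246566, minus strand) lies in no synapsin gene. Exons of the other strand's synapsin cover 1734 bases of Timp3 (21.3% of its exon length) and 1142 bases of Timp4 (14.7%), and none of Timp1. The strand setting of the counting is not given in the sources used here, so it is not known how reads over these bases were assigned. Syn3 was at 4.07 CPM (counts of a gene scaled to a common library total) or less and Syn2 at 7.19 CPM or less in every library. The lncRNA Gm63115, inside which Plau lies, covers 15.1% of the exon length of Plau on the opposite strand, and Gm70772 covers 10.7% of that of Serpinb2, with the same limit. Exons of Serpinb10 on the same strand cover 9.69% of Serpinb2, and those of Cep295nl 7.44% of Timp2.

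Promoter sequences, the 250 bases before the annotated start, were found in the RefSeq table (build GRCm38.p6) for 7 of the 9 genes, with 8 windows because Serpinb2 has 2 starts. Plau and Plat have no entry there. The windows of Plaur and Timp1, which rose most of the 9 after wounding, and of Serpinb2 and Timp4, which were lower in late wounds than in unwounded skin, are shown 5′ to 3′ along each gene. Capitals mark AP-1 type letters (TGANTCA) and ETS type letters (AGGAAG), searched on both strands, where CTTCCT is the ETS match on the opposite strand.
Plaur, chr7:24462233-24462482, plus strand: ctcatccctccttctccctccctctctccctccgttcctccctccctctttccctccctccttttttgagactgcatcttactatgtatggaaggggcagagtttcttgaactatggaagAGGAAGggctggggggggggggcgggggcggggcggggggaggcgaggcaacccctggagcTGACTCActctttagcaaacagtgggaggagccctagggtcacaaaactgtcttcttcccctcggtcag
Timp1, chrX:20869916-20870165, plus strand: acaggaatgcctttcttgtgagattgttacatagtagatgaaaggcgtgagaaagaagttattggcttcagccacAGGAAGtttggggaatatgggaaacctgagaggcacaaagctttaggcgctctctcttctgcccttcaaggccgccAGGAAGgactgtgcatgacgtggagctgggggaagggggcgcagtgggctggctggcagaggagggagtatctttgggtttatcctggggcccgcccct
Serpinb2, chr1:107511173-107511422, plus strand, first start: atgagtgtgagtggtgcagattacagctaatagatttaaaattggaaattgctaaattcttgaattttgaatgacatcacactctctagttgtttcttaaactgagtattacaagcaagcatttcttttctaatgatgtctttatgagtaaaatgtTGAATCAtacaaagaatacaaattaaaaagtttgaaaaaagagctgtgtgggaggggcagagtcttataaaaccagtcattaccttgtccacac
Timp4, chr6:115252206-115252455, minus strand: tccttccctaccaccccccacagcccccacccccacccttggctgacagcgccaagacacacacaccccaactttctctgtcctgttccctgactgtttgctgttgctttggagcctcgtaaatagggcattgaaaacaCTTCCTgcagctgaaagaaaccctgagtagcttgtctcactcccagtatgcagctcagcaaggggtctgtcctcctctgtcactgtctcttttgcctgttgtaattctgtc
The AP-1 type letters occurred in Plaur (TGACTCA, beginning 69 bases before the start) and Serpinb2 (TGAATCA, 94 bases before the first start), and in 6.7% of 32851 RefSeq windows of this length. ETS type letters, present in 29.5% of all windows, occurred in Plaur, Serpine2, Timp3 and Timp4 and at 2 places in Timp1, 175 and 99 bases before its start. Serpinb2 also held TATAAA 29 bases before its first start, letters found in 12.4% of windows. The GC-rich letters GGGCGG, in 32.7% of windows, were in Plaur (3 matches), Serpine2 (6 matches), Timp1, Timp2 and Timp3 (1 match each), and in neither Serpinb2 nor Timp4. A match is a description of these letters only.

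Library totals ran from 11.8 to 58.4 M counts, with a median of 30.4 M, and the lowest counts of any of the 9 genes were those of Timp4 at day 4, down to 12 in a P library. Levels are CPM after TMM scaling, as mean ± SD, and differences are log2 fold changes of edgeR's quasi-likelihood test with Benjamini-Hochberg adjustment over all tested genes. A gene is said to have risen or fallen at an adjusted p under 0.05. In whole tissue, fewer cells of a type and less RNA per cell cannot be told apart. The cell content differed strongly between groups: the summed level of 10 neutrophil markers ran from 0.786 to 2.49 CPM in unwounded skin, where 3 of the 10 were at 0, and from 2248 to 13241 CPM over all day 2 and day 4 wounds. The fibroblast markers ran from 1145 to 2268 CPM in unwounded skin and from 8089 to 65198 CPM at day 12, and skeletal muscle markers ran from 49879 to 80416 CPM in unwounded skin. Muscle RNA was present in every wound library too, at 1573 CPM of markers or more.

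**Figure D1:**
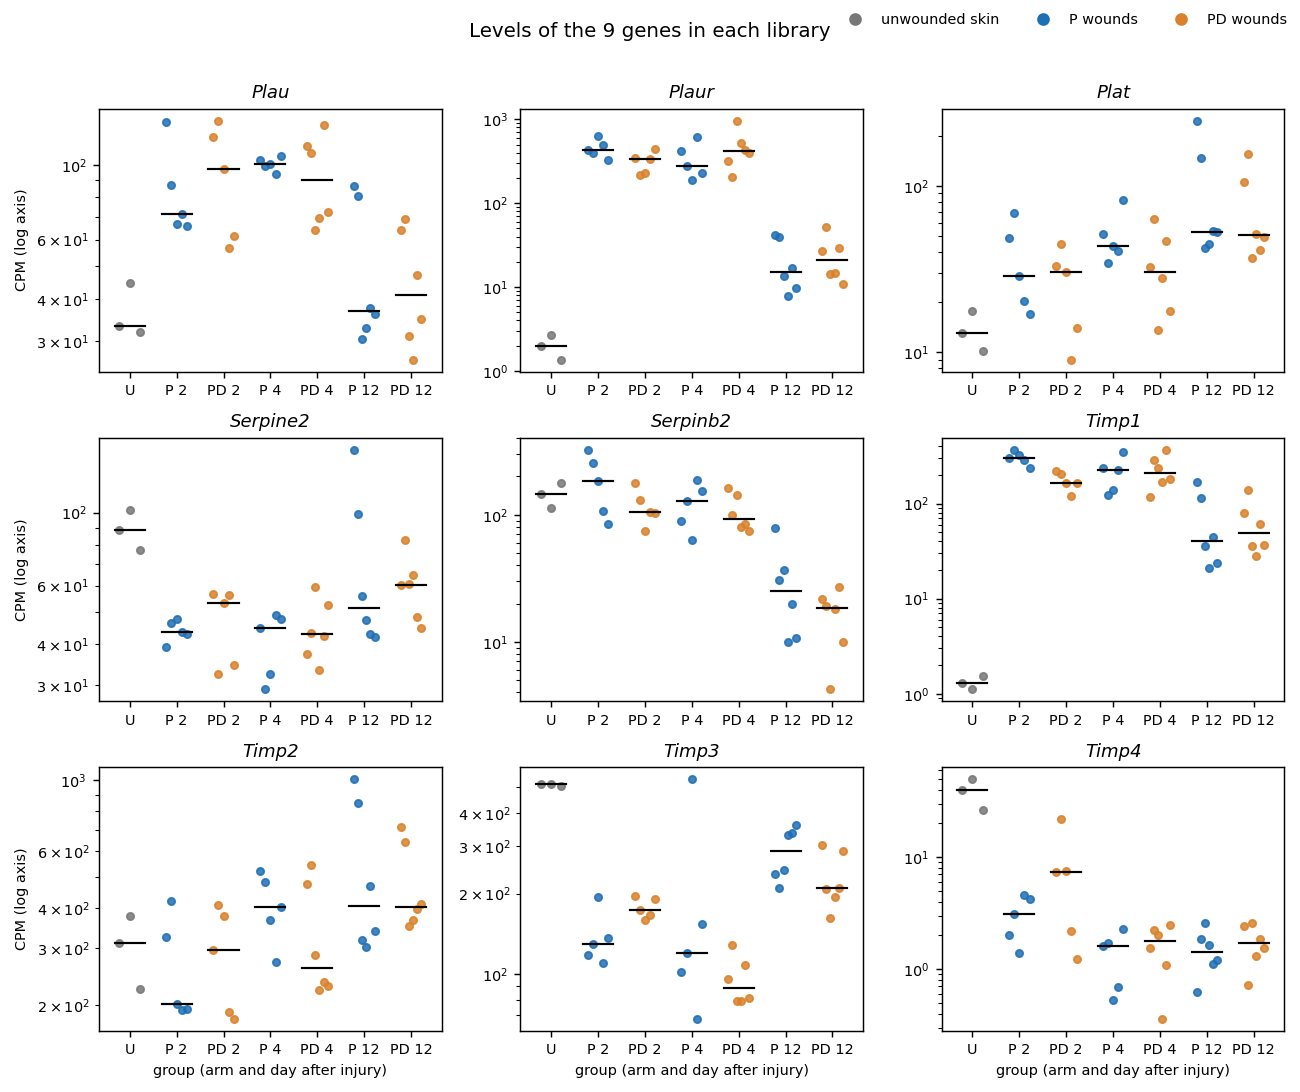
Level of each gene (CPM, log axis) in each of the 36 libraries, by group (U, unwounded skin; P and PD with the day after injury); points are libraries and lines are group medians. Plaur and Timp1 stand far above unwounded skin in every wound, Timp4 stands below it in every wound, and 1 P day 4 library stands apart for Timp3 at 534 CPM.

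Against unwounded skin, 6 of the 9 genes passed the test in P wounds at day 2 (background 41.3% of tested genes), 7 at day 4 (background 43.3%) and 5 at day 12 (background 43.7%). In PD wounds the counts were 6 at day 2 (39.4%), 6 at day 4 (47.1%) and 6 at day 12 (44.9%). Plaur and Timp1 rose and Timp4 fell in all 6 comparisons, Plau rose at days 2 and 4 in both arms, and Serpine2 fell on those days. Plat rose at day 12 in both arms, and Serpinb2 fell at that time. Timp2 passed in none of them. The median log2 change of the 9 genes ran from -0.07 (PD day 2) to 0.47 (P day 12), beside 0.02 and 0.10 for all tested genes. These 6 comparisons share the 3 unwounded libraries.

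**Figure D2:**
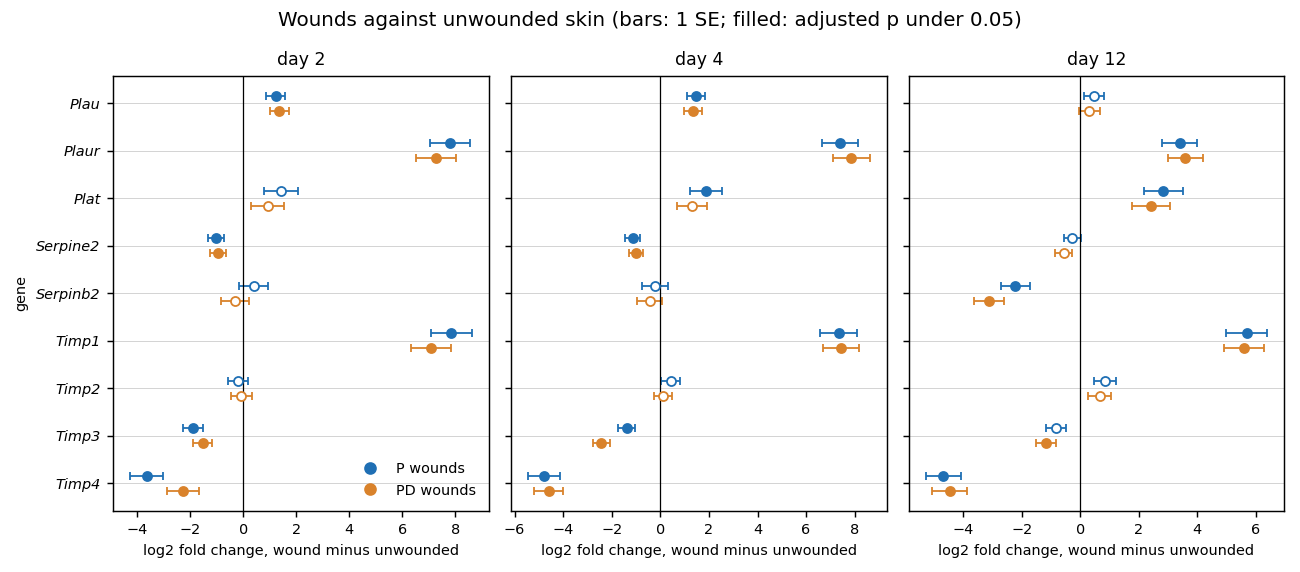
Log2 fold change of each gene in P and PD wounds against unwounded skin at each day; bars are 1 SE and filled points passed the adjusted p of 0.05. Plaur and Timp1 reach 7.07 to 7.85 at days 2 and 4, and Timp4 reaches -4.80.

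Plaur, the surface receptor that concentrates urokinase, showed one of the largest changes. Its level in the 3 unwounded libraries was 1.98, 2.69 and 1.36 CPM. At day 2 the P wounds held 433, 393, 629, 492 and 326 CPM and the PD wounds 351, 217, 230, 337 and 440 CPM. All day 2 wound values were thus far above those of unwounded skin. The rise was 222-fold in P wounds at day 2 (log2 7.80, SE 0.76, adjusted p = 3.79e-09 by edgeR) and 154-fold in PD wounds (log2 7.27, SE 0.74, adjusted p = 1.09e-08 by edgeR). At day 4 the P libraries were at 424, 280, 188, 617 and 228 CPM, and the PD libraries at 208 (lowest), 414 (median) and 968 (highest). The fold against unwounded skin was then 170 in P and 231 in PD wounds. By day 12 Plaur had dropped to between 7.86 and 41.6 CPM in P (median 15.2) and between 10.9 and 51.8 CPM in PD wounds (median 20.9). It fell 16.1-fold from day 4 to day 12 in P wounds (log2 -4.01, SE 0.46) and 19.1-fold in PD wounds (log2 -4.26, SE 0.46), with no overlap between the days. Even so it stayed above unwounded skin, 10.6-fold in P and 12.1-fold in PD wounds. The highest PD day 4 value, 968 CPM, was in replicate 3, which also held the most neutrophil marker RNA of its group (13241 CPM), and in P day 4 the same held for replicate 4 (617 CPM, 8893 CPM of markers). The lowest Plaur values at day 12 were in libraries with neutrophil sums of 16.2 CPM (P) and 12.8 CPM (PD), and the part of these cells in the change was not tested.

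Plau, urokinase itself, moved far less. Unwounded skin held 33.2, 44.5 and 31.9 CPM. Day 2 values were 134, 87.3, 66.8, 71.3 and 65.9 CPM in P wounds and 121, 135, 97.1, 56.8 and 61.6 CPM in PD wounds, all above unwounded skin. The change was log2 1.22 (SE 0.37, adjusted p = 0.00825 by edgeR) in P wounds and 1.37 (SE 0.37, adjusted p = 0.00381 by edgeR) in PD wounds. At day 4 the 5 P libraries lay close together, between 93.7 and 106 CPM, whereas the PD libraries spread from 64.0 to 131 CPM, and both arms were above unwounded skin (2.75-fold and 2.55-fold). From day 4 to day 12 Plau fell 1.99-fold in P and 2.05-fold in PD wounds. At day 12 it ranged from 30.4 to 86.4 CPM in P and from 26.4 to 69.0 CPM in PD wounds, which overlapped the unwounded libraries, and it did not pass the test against them (log2 0.47 and 0.31, adjusted p = 0.275 and 0.472 by edgeR).

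Plat, the activator best known for dissolving clots in blood vessels, followed another course, with its highest group means at day 12. It was at 13.1, 17.7 and 10.2 CPM in unwounded skin. At day 2 the P wounds held 48.5, 68.9, 28.5, 20.4 and 17 CPM and the PD wounds 32.8, 44.6, 30.3, 8.98 and 13.8 CPM, so both arms overlapped unwounded skin. Neither difference passed (log2 1.42 and 0.93, adjusted p = 0.0721 and 0.242 by edgeR). In P wounds the rise passed under 5 alternatives (DESeq2, only the compared libraries, the replicate block, surrogate variables and the library-set term, a split of the wounds read from the counts, adjusted p from 0.00200 to 0.0351), and in PD wounds with surrogate variables (0.0137). At day 4 the P libraries (51.0, 34.2, 43.7, 40.4 and 82.1 CPM) all exceeded unwounded skin and the rise passed (log2 1.88, SE 0.65, adjusted p = 0.02 by edgeR), but not when unwounded replicate 1 or 3 was left out (adjusted p = 0.0616 and 0.0767). In PD wounds at day 4 the range was 13.5 to 63.3 CPM, with log2 1.3 and an adjusted p of 0.0841 by edgeR. The same 5 alternatives passed it there (adjusted p from 1.94e-05, with log2 2.27 under surrogate variables, to 0.0400). Day 12 brought the highest levels, 42.4 to 247 CPM in P (median 53.1) and 36.8 to 155 CPM in PD wounds (median 50.3). These were 7.14-fold (adjusted p = 0.00114) and 5.35-fold (adjusted p = 0.00379) above unwounded skin by edgeR. The change from day 4 to day 12 did not pass in P wounds (log2 0.96, SE 0.50, adjusted p = 0.171 by edgeR). Nor did it pass in PD wounds (log2 1.12, SE 0.48, adjusted p = 0.0728 by edgeR). With the library-set term it passed in both (0.0152 and 0.00694). In PD wounds it also passed with DESeq2 (0.0441), no composition factor (0.0374), the replicate block (0.0218) and without PD day 4 replicate 2 (0.0322). Replicates 1 and 2 of both arms held the high values at day 12: 247 and 146 CPM in P wounds, 106 and 155 CPM in PD wounds, against 36.8 to 53.2 CPM in the other 8 libraries. In the same P libraries the fibroblast markers summed to 65198 and 45461 CPM and in the PD libraries to 35928 and 31803 CPM, against 8089 to 19625 CPM in the other 8. Replicates 1 and 2 of every wound group also fell in the same library set. The part of fibroblast content or of this split in the rise of Plat was not tested.

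**Figure D3:**
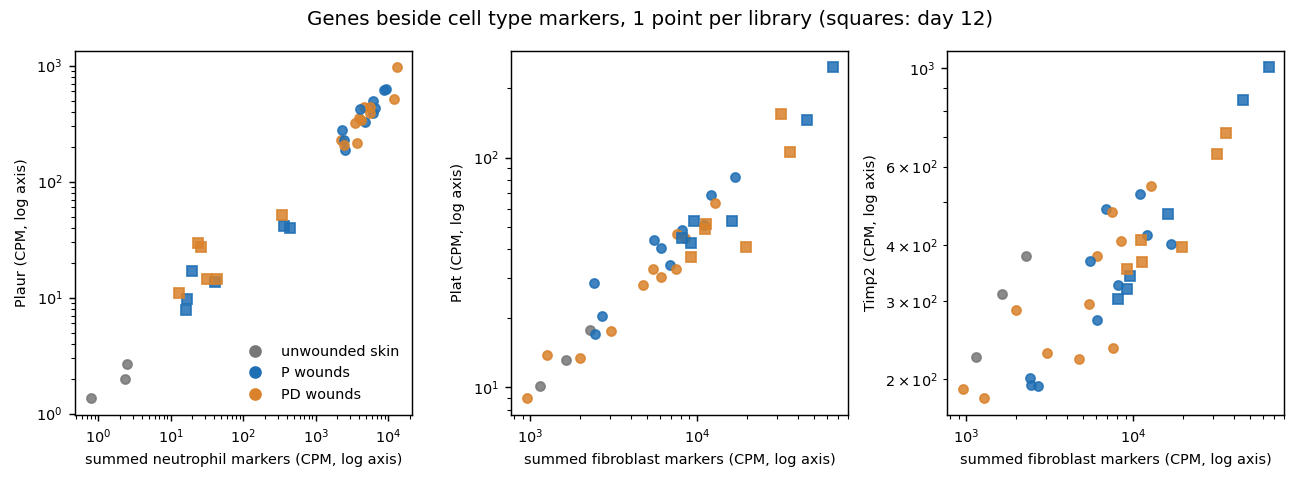
Plaur beside the summed neutrophil markers, and Plat and Timp2 beside the summed fibroblast markers (all in CPM on log axes), 1 point per library, with squares for day 12. Plaur and the neutrophil markers were both lowest in unwounded skin, higher at day 12 and highest at days 2 and 4, and the 4 day 12 libraries with the highest fibroblast sums held the highest Plat and Timp2.

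Among the serpins, Serpine2 was lower in early wounds. It held 88.8, 102 and 77.2 CPM in unwounded skin. Day 2 values were 39.1, 46.4, 47.6, 43.6 and 42.9 CPM in P wounds and 56.6, 32.3, 53.3, 56.3 and 34.4 CPM in PD wounds, all below every unwounded library. The fall was log2 -1.02 (SE 0.30, adjusted p = 0.00673 by edgeR) in P and -0.94 (SE 0.30, adjusted p = 0.0133 by edgeR) in PD wounds. In PD wounds the call ended when unwounded replicate 1 or 2 was left out (adjusted p = 0.0568 and 0.093). At day 4 it was 2.2-fold lower than unwounded skin in P and 2.0-fold lower in PD wounds (log2 -1.14 and -1.0). By day 12 the P wounds ranged from 41.9 to 155 CPM and the PD wounds from 44.6 to 82.8 CPM, and neither passed against unwounded skin (adjusted p = 0.454 and 0.11). The rise from day 4 to day 12 passed in P wounds (log2 0.86, SE 0.26, adjusted p = 0.0147 by edgeR), where the ranges overlapped and replicates 1 and 2 were highest (155 and 98.7 CPM). Without P day 12 replicate 1 that adjusted p was 0.0832, without P day 4 replicate 2 it was 0.0516, and with only the libraries of these 2 groups in the fit it was 0.127. In PD wounds the change over the same days was log2 0.43 (adjusted p = 0.185).

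Serpinb2 kept about its unwounded level early and fell late. Unwounded skin held 145, 112 and 179 CPM. P wounds at day 2 spread widely, at 323, 255, 184, 107 and 84.2 CPM, and PD wounds held 177, 131, 73.8, 106 and 102 CPM. Both arms overlapped unwounded skin, as they did at day 4 (63.5 to 187 CPM in P, 74.8 to 161 CPM in PD wounds), and none of these 4 comparisons passed (adjusted p from 0.495 to 0.751). At day 12 the range was 9.92 to 78.8 CPM in P (median 25.2) and 4.24 to 27 CPM in PD wounds (median 18.6). Every day 12 library was below every unwounded one, by 4.67-fold in P (log2 -2.22, SE 0.50, adjusted p = 0.000606) and 8.71-fold in PD wounds (log2 -3.12, SE 0.50, adjusted p = 1.15e-05) by edgeR. From day 4 to day 12 the fall was 3.99-fold in P and 6.42-fold in PD wounds. Skin keratinocytes and macrophages can both express Serpinb2. Markers of differentiated keratinocytes summed to 9165 to 12631 CPM in unwounded skin. At day 2 they were at 399 to 2481 CPM in P and 664 to 2349 CPM in PD wounds. At day 4 they were at 2652 to 26491 CPM in P (median 15173) and 757 to 12958 CPM in PD wounds (median 2015). At day 12 they were at 2558 to 5827 CPM in P and 498 to 10659 CPM in PD wounds. Monocyte and macrophage markers summed to 148 to 410 CPM in unwounded skin. They were at 3627 to 6188 CPM in P and 2553 to 3997 CPM in PD wounds at day 2. At day 4 they were at 1954 to 6763 CPM in P and 3433 to 6126 CPM in PD wounds. By day 12 they were at 205 to 2208 CPM in P and 413 to 1528 CPM in PD wounds. The part of either cell type in the fall was not tested.

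Timp1, the inducible member of its family, rose with Plaur. It was low in unwounded skin, at 1.31, 1.12 and 1.52 CPM. P wounds at day 2 held 301, 362, 322, 286 and 235 CPM, and PD wounds 221, 206, 166, 121 and 164 CPM. The 2 arms did not overlap each other at that time, and both were far above unwounded skin. The rise was 231-fold in P (log2 7.85, SE 0.78, adjusted p = 4.91e-09) and 135-fold in PD wounds (log2 7.07, SE 0.75, adjusted p = 2.15e-08) by edgeR. Day 4 values were 237, 123, 138, 223 and 345 CPM in P wounds and 118 to 366 CPM in PD wounds (median 209), or 163-fold and 173-fold above unwounded skin. Monocytes and macrophages can express Timp1. Their markers summed to 148 to 410 CPM in unwounded skin and to 1954 to 6763 CPM over all day 2 and day 4 wounds. At day 12 these markers summed to 205 to 2208 CPM in P (median 368) and 413 to 1528 CPM in PD wounds (median 647). The part of these cells in the Timp1 levels was not tested. From day 4 to day 12 Timp1 fell 3.14-fold in P wounds (log2 -1.65, SE 0.43) and 3.57-fold in PD wounds (log2 -1.84, SE 0.42), a smaller decline than that of Plaur, though the difference between the genes was not tested. At day 12 it ranged from 20.9 to 169 CPM in P (median 40.1) and from 28.1 to 138 CPM in PD wounds (median 49.1). By the test it was still 51.9-fold and 48.6-fold above unwounded skin. Replicates 1 and 2 held the highest day 12 values in both arms. They were also the day 12 libraries with the highest fibroblast marker sums, and the part of fibroblast content was not tested. With only the P libraries of days 4 and 12 in the fit, the fall in P wounds had an adjusted p of 0.0641.

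Timp2, which also takes part in activating the pro-form of Mmp2 with Mmp14, was abundant in every group. It held 311, 378 and 225 CPM in unwounded skin and 181 to 543 CPM over all day 2 and day 4 wounds. At day 12 it ranged from 303 to 1003 CPM in P (median 405) and from 353 to 715 CPM in PD wounds (median 404). Replicates 1 and 2 were again the highest in both arms, at 1003 and 846 CPM in P and 715 and 640 CPM in PD wounds. The day 12 differences from unwounded skin were log2 0.84 (SE 0.39, adjusted p = 0.078) in P and 0.66 (SE 0.39, adjusted p = 0.165) in PD wounds by edgeR. They passed in both arms with 2 surrogate variables for unmodelled variation as covariates (0.83, adjusted p = 0.00118, and 1.01, adjusted p = 0.000402). The same held with a term for 2 sets of wound libraries (0.86, adjusted p = 0.000133, and 0.76, adjusted p = 0.000535). Both covariates were read from these same counts, which lowers the spread left within groups, so these passes are not independent support. The difference also passed with the replicate number as a block (adjusted p = 0.000131 in P and 0.000411 in PD wounds). These replicate numbers were not shown to pair the samples. In P wounds the difference passed with DESeq2 (0.0465), no composition factor (0.0262) and without P day 12 replicate 3 (0.0493) or 4 (0.0421). With 1 library left out, the adjusted p ran from 0.0421 to 0.218 in P and from 0.127 to 0.353 in PD wounds.

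Timp3, the matrix-bound inhibitor, was the most tightly held of the 9 in unwounded skin, at 514, 516 and 507 CPM. P wounds at day 2 held 118, 129, 194, 109 and 137 CPM, and PD wounds 196, 173, 160, 166 and 190 CPM, all below unwounded skin. The fall was 3.72-fold in P (log2 -1.90, SE 0.36, adjusted p = 9.56e-05) and 2.90-fold in PD wounds (log2 -1.53, SE 0.36, adjusted p = 0.00111) by edgeR. At day 4 PD wounds held 79.0 to 128 CPM (median 88.4), 5.38-fold below unwounded skin (log2 -2.43, SE 0.34). The P wounds at day 4 held 102, 120, 534, 68.1 and 154 CPM, and replicate 3 (534 CPM) was above all unwounded libraries. That library also carried 7784 CPM of hair follicle markers, against 7.45 to 17.5 CPM in the other 4. The fall in P wounds at day 4 was log2 -1.39 with all libraries (SE 0.36, adjusted p = 0.00265 by edgeR) and -2.20 without replicate 3 (adjusted p = 2.97e-08). It did not pass with only the P day 4 and unwounded libraries in the fit (adjusted p = 0.0861). At day 12 Timp3 ranged from 209 to 361 CPM in P and from 161 to 303 CPM in PD wounds, below every unwounded library. The difference passed in PD wounds (log2 -1.17, SE 0.35, adjusted p = 0.00715) and not in P wounds (log2 -0.84, SE 0.35, adjusted p = 0.051). In P wounds it passed with only the compared libraries (0.00637), with the library-set term (0.0349) and without P day 12 replicate 6 (0.0442), and the arms were not shown to differ. From day 4 to day 12 it rose in PD wounds (log2 1.26, SE 0.30, adjusted p = 0.0014). In P wounds that change was 0.55 (adjusted p = 0.205) with all libraries and 1.37 (adjusted p = 1.32e-05) without replicate 3 of day 4. All libraries of day 12 held 542 CPM or more of hair follicle markers. Unwounded skin, where Timp3 was higher than in any day 12 library, held a median of only 9.53 CPM of these markers. The part of hair follicles in the Timp3 levels was not tested.

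Timp4, known from heart and fat tissue, was present in unwounded skin at 40.0, 49.3 and 26.5 CPM and low in wounds. P wounds at day 2 held 2.01, 3.12, 1.39, 4.61 and 4.25 CPM, a 12.5-fold fall (log2 -3.64, SE 0.62, adjusted p = 2.1e-05 by edgeR). PD wounds at day 2 held 7.30, 21.8, 7.46, 2.17 and 1.23 CPM, a 4.84-fold fall (log2 -2.27, SE 0.60, adjusted p = 0.00304 by edgeR), which was log2 -3.08 without replicate 2. The 3 higher PD libraries, replicates 1 to 3, also held the most adipocyte marker RNA (1965, 3365 and 2090 CPM, against 392 and 236 CPM in replicates 4 and 5). Adipocyte markers summed to 916 to 2131 CPM in unwounded skin, and their part in the Timp4 values was not tested. From day 4 on every wound held 0.361 to 2.58 CPM, which was 27.9-fold and 24.3-fold below unwounded skin at day 4 and 25.8-fold and 22.2-fold at day 12, in P and PD wounds. The fall from day 2 to day 4 passed in PD wounds (log2 -2.33, SE 0.53, adjusted p = 0.0106 by edgeR), where Timp4 was the only one of the 9 genes to pass. It did not pass without PD day 2 replicate 2 (log2 -1.52, adjusted p = 0.0947) or with only the libraries of the 2 groups in the fit (adjusted p = 0.0989).

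Between days, 0 of the 9 genes passed from day 2 to day 4 in P wounds (background 8.45%; 1 gene, Timp4, had an unadjusted p under 0.05 in edgeR, and DESeq2 called 0) and 1 in PD wounds (background 4.26%). From day 4 to day 12, 5 passed in P wounds (background 23.8%), of which Plau, Plaur, Serpinb2 and Timp1 fell and Serpine2 rose. In PD wounds 5 passed as well (background 31.3%), where Plau, Plaur, Serpinb2 and Timp1 fell and Timp3 rose. Ordered by mean, the 7 groups separated between neighbours by the test at few steps. For Plaur these were unwounded skin against P day 12 (adjusted p = 4.63e-05) and PD day 12 against PD day 2 (adjusted p = 5.05e-07), with no step that passed among the early wounds at the top. Timp1 separated at unwounded skin against PD day 12 (adjusted p = 2.37e-07) and P day 12 against PD day 2 (adjusted p = 0.0118). For Timp4 the step was PD day 2 against unwounded skin, for Serpinb2 P day 12 against PD day 4 (adjusted p = 0.00168), and for Plau P day 12 against P day 2 (adjusted p = 0.0382). No step between neighbours passed for Plat, Serpine2, Timp2 or Timp3.

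Because the Timps share targets, their make-up was compared per length of exon (CPM per kb, union exon length from the annotation), as each gene's share of the summed Timp level. In unwounded skin the median share was 50.3% for Timp2, 45.5% for Timp3, 3.73% for Timp4 and 0.482% for Timp1. At day 2 Timp1 made up 66.4% in P wounds (range 62.6% to 71.8%) and 49.5% in PD wounds (range 44.5% to 56.7%). The ranges of the 2 arms did not overlap there, and they did at day 4 (medians 48.3% and 59.6%). Timp3 was down to a median of 6.61% in P and 11.8% in PD wounds at day 2. At day 12 Timp2 led in both arms, with a median of 60.8% in P and 65.0% in PD wounds, followed by Timp3 (24.7% and 17.2%) and Timp1 (14.3% and 16.4%). The summed Timp level had a median of 139 CPM per kb in unwounded skin, 233 and 190 at day 2, 219 and 187 at day 4 and 151 and 146 at day 12 in P and PD wounds. The medians of the sum thus spanned 139 to 233, while the median share of Timp1 spanned 0.482% to 66.4%. No test was made of these shares, and their order rests on the exon lengths used. In plain CPM the unwounded medians were 59.3% for Timp3 and 35.9% for Timp2. The day 2 medians of Timp1 were then 41.2% in P and 25.5% in PD wounds, where Timp2 (41.1%) and Timp3 (27.2%) were above it, and at day 4 Timp2 led in both arms (48.1% and 47.2%).

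**Figure D4:**
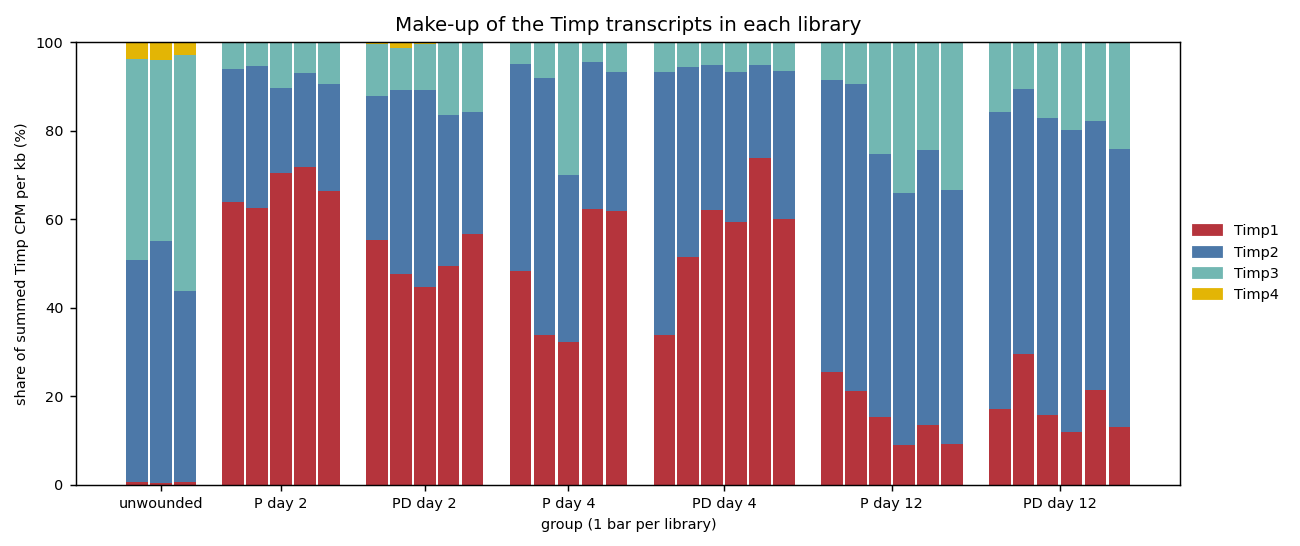
Share of each Timp gene in the summed Timp level (CPM per kb, in percent) in each library, by group. Timp2 and Timp3 fill unwounded skin, Timp1 holds 32.2% to 73.9% of day 2 and day 4 wounds, and Timp2 is the main part at day 12.

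On the same scale the activators can be set side by side. Plaur was at 0.503 ± 0.166 CPM per kb in unwounded skin (SD, n = 3), below Plau at 14.2 ± 2.69 and Plat at 1.96 ± 0.547. At day 2 in P wounds Plaur reached 114 ± 28.7 CPM per kb (SD, n = 5), above Plau at 33.1 ± 11.2 and Plat at 5.26 ± 3.12. At day 12 in P wounds Plau was at 19.7 ± 9.98, Plat at 14 ± 11.9 and Plaur at 5.40 ± 3.79 CPM per kb (SD, n = 6). On this scale the order of the 3 genes differed between the groups. It rests on the exon lengths used, since in plain CPM Plat (97.8) was above Plau (50.7) at day 12 in P wounds. Serpinb2 was above Serpine2 in unwounded skin, at 51.3 ± 11.7 against 7.24 ± 0.997 CPM per kb, and the 2 were at 5.89 ± 2.92 and 4.89 ± 1.10 in PD wounds at day 12. In plain CPM the order was the opposite there, with Serpinb2 at 16.7 and Serpine2 at 60.2.

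PD and P wounds were compared at each day to ask whether the arms differed in this system. None of the 9 genes, and none of the 20657 tested genes (background 0%), passed in edgeR at day 2, 4 or 12 or in the mean over days. DESeq2's Wald test called 24, 182, 0 and 104 genes in these comparisons and 0 of the 9. Within the second of the 2 library sets alone edgeR called 1 gene at day 2 and 74 at day 4, and 0 of the 9. At an unadjusted p under 0.05 edgeR gave 1 of the 9 genes in each comparison, beside 793, 2369, 1022 and 2488 genes overall. At day 2 this was Timp4, higher in PD wounds (log2 1.37, 95% interval 0.27 to 2.48, adjusted p = 1), a difference of 0.56 without PD replicate 2. At day 4 it was Timp3, lower in PD wounds (log2 -1.04, interval -1.66 to -0.41, adjusted p = 0.271), which was -0.22 without P replicate 3, the library with the high Timp3. At day 12 and in the mean over days it was Serpinb2, lower in PD wounds (log2 -0.90, interval -1.77 to -0.03, adjusted p = 0.884, and -0.60, interval -1.12 to -0.08, adjusted p = 0.403). The day 2 ranges of Timp1 did not overlap (235 to 362 CPM in P, 121 to 221 CPM in PD wounds), yet the difference did not pass (log2 -0.78, interval -1.69 to 0.14, adjusted p = 1). At that time the neutrophil marker sums also did not overlap, at 4824 to 9221 CPM in P and 2248 to 4627 CPM in PD wounds. Those of monocytes and macrophages did overlap, at 3627 to 6188 CPM in P and 2553 to 3997 CPM in PD wounds. The part of these cells in the Timp1 values was not tested. For Plaur the intervals were -1.43 to 0.37 at day 2, -0.42 to 1.31 at day 4 and -0.63 to 1.02 at day 12, which leaves room for differences of more than 2-fold. For Serpine2 they were narrower, -0.45 to 0.63, -0.38 to 0.66 and -0.78 to 0.21.

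**Figure D5:**
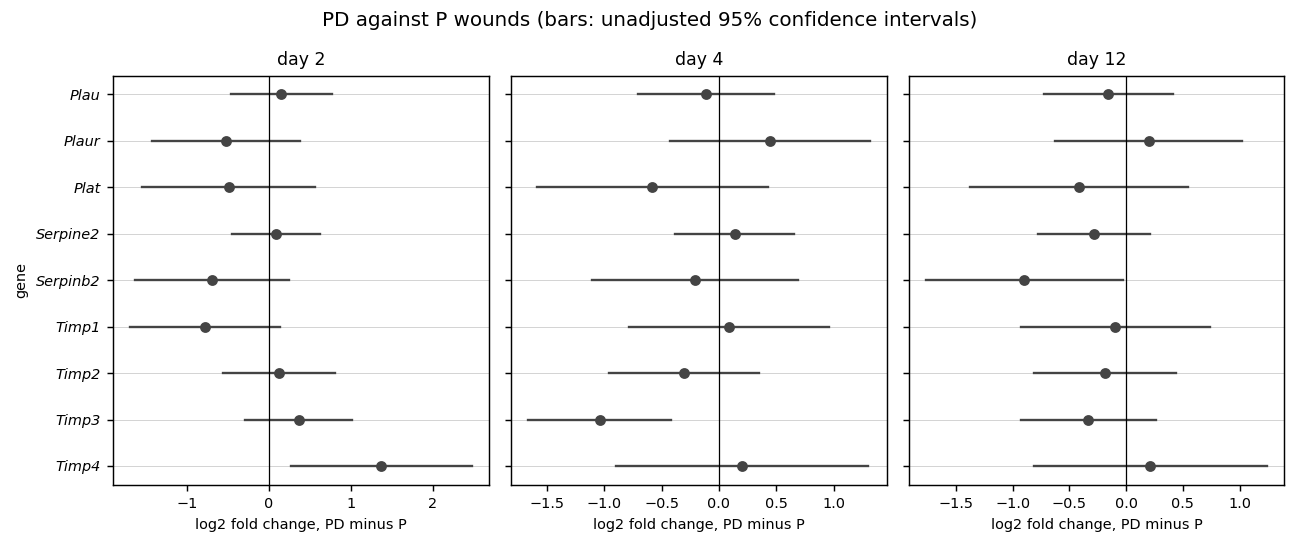
Log2 fold change of each gene in PD against P wounds at days 2, 4 and 12, with unadjusted 95% confidence intervals. Nearly all intervals span 0; those of Timp4 at day 2, Timp3 at day 4 and Serpinb2 at day 12 do not, and none of the 27 differences passed after adjustment.

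The change of the PD minus P difference between days was tested as an interaction, and 0 of the 9 genes and 0 of all tested genes (0%) passed in edgeR (1472 and 623 genes had an unadjusted p under 0.05, and DESeq2 called 78 and 89). Timp3 had the smallest p of the 9, for a change of log2 -1.40 from day 2 to day 4 (adjusted p = 0.633). With 1 library left out this change ran from -1.67 to -0.59.

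Other genes of the proteolytic system were read from 5 lists, with up to 3 genes named in each direction at day 2 in P wounds by smallest adjusted p. Of 12 tested genes of plasmin generation and its surface receptors, 5 rose and 0 fell (median log2 0.48, beside 0.02 for all genes), where 41.3% of all tested genes passed, so the share was near the background. Lrp1, the endocytic receptor that clears protease and serpin complexes, rose 3.71-fold from 241 ± 20.5 CPM (SD, n = 3) to 896 ± 180 CPM (SD, n = 5). F12 and Cpb2 also passed, at 0.324 CPM or less for F12 and 0.416 CPM or less for Cpb2 in P wounds. Cpb2 was at 0 in all unwounded libraries. At days 4 and 12 the P counts were 3 higher and 0 lower (background 43.3%), and 3 higher and 2 lower (background 43.7%). Among 15 coagulation and fibrin genes, 8 rose and 2 fell at day 2 in P wounds (background 41.3%, median log2 1.31). The clotting factor F10 was at 0.163 ± 0.0539 CPM in unwounded skin and 77.2 ± 26.4 CPM in P wounds. F7 and F5, at 0.148 and 0.230 CPM in unwounded skin, reached 17.5 and 14.5 CPM, while the protease-activated receptors F2rl1 (2.54-fold) and F2r (2.07-fold) fell.

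Of 15 metalloproteinases and other inhibitors, 10 rose and 0 fell at day 2 in P wounds, with a median log2 change of 1.82 beside 0.02 for all tested genes, of which 41.3% passed. Mmp9, a gelatinase of neutrophils and keratinocytes, rose from 18.1 ± 2.23 to 327 ± 103 CPM, Mmp3 from 6.50 ± 1.68 to 136 ± 91.9 CPM, and the aggrecan-cleaving Adamts4 from 0.972 ± 0.642 to 54.7 ± 20.3 CPM. At day 4, 9 rose (background 43.3%) and at day 12, 8 (43.7%), with 0 lower on both days. In PD wounds 8 rose at day 2 (background 39.4%), 7 at day 4 (47.1%, a like share) and 8 at day 12 (44.9%), when 1 fell.

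Of 13 clade B serpins, the relatives of Serpinb2, 3 rose and 4 fell at day 2 in P wounds (background 41.3%), 5 rose and 4 fell at day 4 (43.3%), and 5 rose and 5 fell at day 12 (43.7%). All tested genes that passed also split, with 54.0% of them higher at day 2. Serpinb1a, an inhibitor of neutrophil proteases, rose 12.6-fold to 212 ± 63.5 CPM. Serpinb6c and Serpinb3a also rose, to 10.3 and 0.492 CPM. Serpinb11 (13.6-fold), Serpinb7 (16.2-fold) and Serpinb8 (2.44-fold) fell. In 10 secreted serpins, 2 rose and 3 fell at day 2 (background 41.3%), and 6 rose and 1 fell at day 12 (43.7%). Serpina3n, an acute phase serpin, rose from 19.1 ± 4.73 to 819 ± 262 CPM at day 2. Antithrombin, Serpinc1, rose from 0.244 to 0.554 CPM, and Serpina12 (28-fold), Serpina3g (3.36-fold) and Serpind1 (3.12-fold) fell. None of these genes passed between PD and P wounds on any day.

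The genes with the most similar pattern over the 36 libraries were named by Pearson's r of log2 CPM, among 15406 genes with a mean of at least 1 CPM, as a description of libraries that share their wound stage and cell content. For Plaur they were Mcemp1 (r = 0.988), Cd300lf (0.988) and Tlr6 (0.987), all known from myeloid cells. Timp1 was most like Ripk3 (0.976), Tgfb1 (0.960) and Tlr1 (0.952), and Plau most like Nxpe5 (0.941), Ctsb (0.936) and Arpc5 (0.930). Plat ran with the collagen genes Col5a2 (0.982) and Col6a3 (0.967) and the crosslinking enzyme Loxl2 (0.964). Timp2 ran with Lum (0.917), Mmp2 (0.915) and Laptm4a (0.912). Timp3 was most like Arhgef28 (0.923), Klhl29 (0.912) and Dsg2 (0.906), and Timp4 most like Enpp5 (0.905), Plaat3 (0.899) and Aldh6a1 (0.897). For Serpinb2 they were Ttc39b (0.904), Mctp2 (0.901) and Tgfbi (0.900). Serpine2 had the loosest partners, Gm15675 (0.835), Pygo1 (0.810) and Itm2a (0.803).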

How the data were processed

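Total RNA of 36 mouse skin samples was prepared with a TruSeq Stranded mRNA kit and sequenced on an Illumina instrument, per the labels' protocols. The authors deposited whole-number read counts per gene, not normalized, and the submitters' processing notes name Trimmomatic, HISAT2 2.1.0, SAMtools 1.9 and HTSeq as tools and GRCm39 as the build. The annotation release and strand setting are not given in the sources used here.

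Counts were scaled by TMM and fitted with edgeR 4.0.16 (glmQLFit with robust, glmQLFTest, R 4.3.3), with 1 mean for each of 7 groups over all 36 libraries, after filterByExpr (minimum count 10, minimum total 15). p-values were Benjamini-Hochberg adjusted over all 20657 tested genes. All adjusted p-values in the text are from this test unless another is named. SEs were derived from the F statistic. The procedure was tested on simulated data. Alternatives were DESeq2 (1.42.0) size factors, no composition factor, no filter, DESeq2's Wald test, only the compared libraries, the replicate number as a block, 2 surrogate variables (sva 3.50.0), a term for 2 library sets, and each library left out. The 2 library sets were found from the wound libraries' deviations from their group means by an alternating fit. The fit kept was the one started from replicates 1 and 2. Set 1 (14 libraries) held replicates 1 and 2 of every wound group, with PD day 2 replicate 3 and P day 4 replicate 5. The split thus largely follows the replicate numbers, and what lies behind it was not tested. They explain 20.1% of the variance within groups. Like the surrogate variables, they were read from the tested counts, so passes under either are not independent support. Fits within each set were added after seeing the data.

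All 9 genes are named in every comparison, and of each other list at most the 3 genes with the smallest adjusted p per direction. The 9 genes, the lists, the cell markers and the tests were chosen with earlier results of these data known. Promoters come from a RefSeq table of another build (GRCm38.p6) and were searched as letters only. No protein sequences were used here.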

Additional observations from a re-analysis of the deposited data

Results flagged for a closer look

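The level of Timp3 in P day 4 replicate 3 was 534 CPM, against 68.1 to 154 CPM in the other 4 libraries of its group. It was flagged because its gap to the nearest library, divided by the range of the group, exceeded Dixon's critical value. Of 54 gene and group combinations with 4 to 10 samples, 1 was flagged, where chance flags about 1 in 20. That library also held 7784 CPM of hair follicle markers and the highest Syn3 level of all libraries (4.07 CPM), and the part of either in the value was not tested.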

How the results depend on the processing

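Directions and calls of the 9 genes were compared with the reported values under each alternative. An uncalled value no larger than its SE was taken to have no direction. Of 1206 gene values under settings other than leaving out a library, 1155 kept direction and side of the threshold, 43 passed it newly, 4 no longer passed and 4 reversed. With 1 library left out, 1829 of 1845 kept both, 6 passed newly, 7 no longer passed and 3 reversed. From day 2 to day 4 in P wounds, 0 of the 9 genes passed as reported, 1 (Timp2) with the replicate block, 2 (Plat and Timp2) with 2 surrogate variables and 1 (Timp2) with the library-set term. From day 4 to day 12 in P wounds, 3 passed with only the compared libraries, against 5. Over all genes the calls there were 3312 against 4922. From day 2 to day 4 in PD wounds, 3 passed with 2 surrogate variables, and 0 to 1 with a library left out, the 0 without PD day 2 replicate 2. The cause was not tested.

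The PD minus P differences that reversed, none of them called, were Timp4 at day 2 within library set 2 (log2 -1.01), Plaur at day 4 within set 1 (-0.24), Serpine2 at day 12 within set 2 (0.22) and Timp3 at day 12 within set 1 (0.21). With a library left out, Serpine2 at day 12 ran from -0.41 to 0.073 (highest without P day 12 replicate 1). Timp3 from day 2 to day 4 in P wounds ran from -0.31 to 0.75, and its interaction from day 4 to day 12 from -0.11 to 0.95, both lowest without P day 4 replicate 3.

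The replicate numbers were not shown to pair the samples. Correlations of the deviations of same-numbered P and PD libraries ran from -0.25 to 0.46 at day 2, -0.14 to 0.21 at day 4 and -0.10 to 0.54 at day 12. Under the replicate block no call of the 9 genes was lost, and Plat, Plau and Timp2 passed in further comparisons, such as Timp2 at day 12 against unwounded skin (log2 1.1 in P, 1.0 in PD wounds).

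Over all genes, from day 2 to day 4 in PD wounds 880 were called, and 1647 by DESeq2, 1342 with surrogate variables, 1440 with the library-set term, 527 without the filter and 381 with only the compared libraries. In P wounds 1746 were called, and 2103 with the replicate block, 3309 with surrogate variables, 2841 with the library-set term and 1138 with only the compared libraries. Without a composition factor the median change of all genes at day 12 in P wounds against unwounded skin moved from 0.10 to 0.37. Counting depth limits Timp4 in late wounds most.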
